A study of Oryza sativa with 8 samples.

Results

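The regions described here are the places in the rice genome where all 4 chromatin immunoprecipitation (ChIP) libraries for ABERRANT PANICLE ORGANIZATION2 (APO2) gave a called peak. APO2 is the rice orthologue of LEAFY, a transcription factor found only in plants. Peaks of the 4 lists that overlapped by 1 bp or more were merged, a merged region was kept when it held at least 1 peak of every replicate, and regions in 6 dense blocks with a high background, on chromosomes 1, 2, 4, 8, 10 and 12, were dropped. This left 376 regions of the 4076 merged regions of the series. Of the 3861 merged regions outside the blocks they were 9.74%, a share that the choice of members fixes. Presence in a list, and the fold and q-value that put a peak there, chose the members, so these values are given as a description without a test.

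The ChIP group and its input group, of 4 samples each, were young inflorescence meristems fixed with 1% formaldehyde for 10 minutes. The antibody was raised against GFP, the green fluorescent protein, and the labels number it ab290, ab291, ab292 and ab293 for replicates 1 to 4. Whether these are different antibodies is not stated, and such a difference could not be told apart from that between replicates. The labels used here give no genotype, transgene, promoter, developmental stage or number of plants per sample, and the inputs were not analysed here. Among the samples there is no control precipitation from plants lacking a GFP fusion, so sharing by 4 libraries does not by itself show binding by APO2. The labels do not tie the replicates to separate plants, so the spread between them may be technical.

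LEAFY-type proteins bind DNA as dimers through a domain that is conserved across land plants. In Arabidopsis, LEAFY switches on floral organ identity genes and acts together with the F-box protein UFO. In rice, APO2 and APO1, the orthologue of UFO, are known for keeping the inflorescence meristem active and so for setting the branching of the panicle. Positions below are on the IRGSP-1.0 build, counted from 1. The genes and the DNA sequence at these positions were not analysed here, so every region is named by its coordinates.

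The shared regions had median folds of 7.58 to 12.3 in the 4 libraries, and the order of the libraries depended on how the fold is formed. Fold enrichment is the authors' value at the summit, the highest point of a peak, over the caller's local background, with 1 added to each. The added 1 lowers the fold most where the background is low, as in replicate 2, where the median background was 0.839 fragments. Where a list had several peaks in a region, the one with the highest fold was used. The median fold over the 376 regions was 9.86 in replicate 1, 7.58 in replicate 2, 12.3 in replicate 3 and 10.7 in replicate 4, a mean of 10.1 ± 1.96 (SD, n = 4 replicates). Folds ran from 2.88 to 88.3 in replicate 1, from 2.90 to 55.6 in replicate 2, from 2.42 to 145 in replicate 3 and from 2.71 to 105 in replicate 4, so the range within each library was far wider than the gap between library medians. Replicate 3 gave the highest of the 4 folds in 187 regions, replicate 4 in 108, replicate 1 in 60 and replicate 2 in 21. Replicate 2 gave the lowest fold in 232 regions. Without the added 1, the median ratio of fragments to background was 14.7 in replicate 1, 17.3 in replicate 2, 14.9 in replicate 3 and 16.9 in replicate 4, a mean of 15.9 ± 1.36 (SD, n = 4 replicates). Replicate 2 then gave the highest of the 4 values in 121 regions and the lowest in 66, so in these regions no library was the weakest by both measures. All 376 regions were chosen with a peak in replicate 2, and the part this plays in its values was not tested. Peaks of the same lists outside the shared regions and the blocks were enriched 5.03-, 4.79-, 4.71- and 5.09-fold at the median in replicates 1 to 4, a difference that follows in part from the rule.

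**Figure D1:**
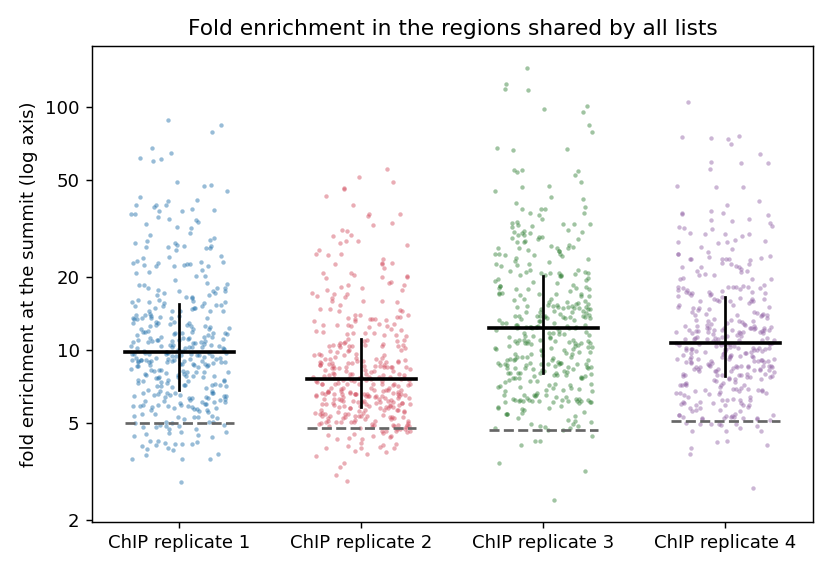
Fold enrichment at the summit, as the caller gives it with 1 added to each term (log axis), of the 376 shared regions in each ChIP replicate, 1 point per region. Thick black lines are medians (9.86, 7.58, 12.3 and 10.7 in replicates 1 to 4), vertical lines the interquartile range, and dashed grey lines the medians of each list's other peaks outside the blocks (5.03, 4.79, 4.71 and 5.09); the points of the 4 replicates overlap over most of their range.

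The shared regions took up very different shares of the 4 lists, since the lists differ in length. They held 405 of the 1337 peaks of replicate 1 (30.3%), 396 of the 626 of replicate 2 (63.3%), 377 of the 3308 of replicate 3 (11.4%) and 400 of the 2081 of replicate 4 (19.2%). They included nearly all of the strongest 100 peaks of each list. Outside the blocks, all of the strongest 20 peaks of each list lay in shared regions. Of the strongest 100 peaks 95, 99, 96 and 96 did in replicates 1 to 4, and of the strongest 200 peaks 171, 198, 170 and 168. A few strong peaks were not shared by all lists. The strongest of these in replicate 1, on chromosome 11 at 12122421 to 12123117, had a fold of 30.7 and was met by a peak in replicate 3 alone. In replicate 3 the strongest was on chromosome 5 at 6447248 to 6449715, with a fold of 28.0, and replicates 1 and 4 also had a peak there.

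The strongest 10 shared regions, by mean percentile of fold within the lists, were at or above the 98th percentile of every list. All of them had a single peak in each replicate, and their summits spanned 14 to 74 bp. The first lay on chromosome 2, and its summits were called at 13605834, 13605829, 13605849 and 13605844 in replicates 1 to 4, within 20 bp. The second, on chromosome 12, had 280, 85, 688 and 225 fragments at its summits, with exact 95% Poisson intervals of 248 to 315, 67.9 to 105, 638 to 741 and 197 to 256. Its summits lay at 24879192, 24879212, 24879192 and 24879138. Replicate 3 had the most fragments at both, and replicate 2 the fewest. The third, on chromosome 7, held 184, 86, 411 and 182 fragments with summits from 23123521 to 23123567.

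Chromosome 1 held 3 of the 10. The one with summits from 40014814 to 40014869 held 143, 60, 349 and 116 fragments in replicates 1 to 4. The one with summits from 40290804 to 40290818, a span of 14 bp, held 133, 50, 387 and 118 fragments. The one with summits from 37977849 to 37977904 held 152, 60, 323 and 140. In all of them the order of the libraries was the same, with replicate 3 highest and replicate 2 lowest. On chromosome 3, the region with summits from 29304999 to 29305029 held 123, 66, 356 and 120 fragments, and that with summits from 22818020 to 22818047 held 198, 102, 490 and 190. The chromosome 7 region with summits from 11615708 to 11615741 held 205, 68, 474 and 210 fragments. The chromosome 11 region with summits from 16710637 to 16710660 held 92, 62, 185 and 64 fragments, and its lowest fold, 33.3, was in replicate 4.

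At the other end, the weakest shared region stood apart from all others. It lay near the start of chromosome 6, from 56129 to 56607, with folds of 3.70, 2.90, 2.42 and 2.71 in replicates 1 to 4 and a mean percentile of 3.77, against 26.9 for the next weakest. It was not poor in fragments, with 81, 46, 160 and 68 at the summit. Its background was the highest of all 376 regions in replicates 2, 3 and 4, at 15.2, 65.6 and 24.4 fragments, and was 21.2 in replicate 1. Its summits nevertheless agreed within 15 bp. The next 4 of the weakest had folds between 3.29 and 5.86. They began at 1743540 on chromosome 1, at 5270382 and 12871532 on chromosome 3 and at 28180277 on chromosome 6.

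The threshold of the rule is the caller's own, a q-value close to 0.05. Just inside it, the lowest −log10 q of a member was 1.51, in replicate 2 at 26400884 to 26401459 on chromosome 1, and the next were 1.56, 1.57, 1.69 and 1.70, all in replicate 2. The peak with the lowest q support was that of replicate 2 in 327 of the 376 regions. Just outside, on chromosome 3, a peak of replicate 2 at 28630871 to 28631116 ended 19 bp before a region with peaks of the other 3 replicates. The next closest pairs that together held peaks of all 4 replicates were 269 and 623 bp apart. In both of these, replicates 3 and 4 had peaks on each side of the gap. A peak with −log10 q of at least 10 in every list was found in 160 regions.

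The number of fragments piled up at each summit can be worked back from the deposited fold and p-value, as described under the processing. Its median over the 376 regions was 34 in replicate 1, 13 in replicate 2, 67 in replicate 3 and 31 in replicate 4. The median background was 2.44, 0.839, 4.77 and 1.83 fragments. Relative to replicate 1 in the same region, the median ratio of fragments was 0.414 in replicate 2 (interquartile range 0.333 to 0.530), 2.05 in replicate 3 (1.69 to 2.44) and 0.949 in replicate 4 (0.790 to 1.17). The median ratio of the backgrounds to replicate 1 was 0.374, 2.03 and 0.830. Fragments over background without the added 1 had median ratios to replicate 1 of 1.16, 1.03 and 1.13, and the caller's fold, with it, 0.776, 1.21 and 1.08. The direction for replicate 2 was therefore opposite under the 2 measures.

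**Figure D2:**
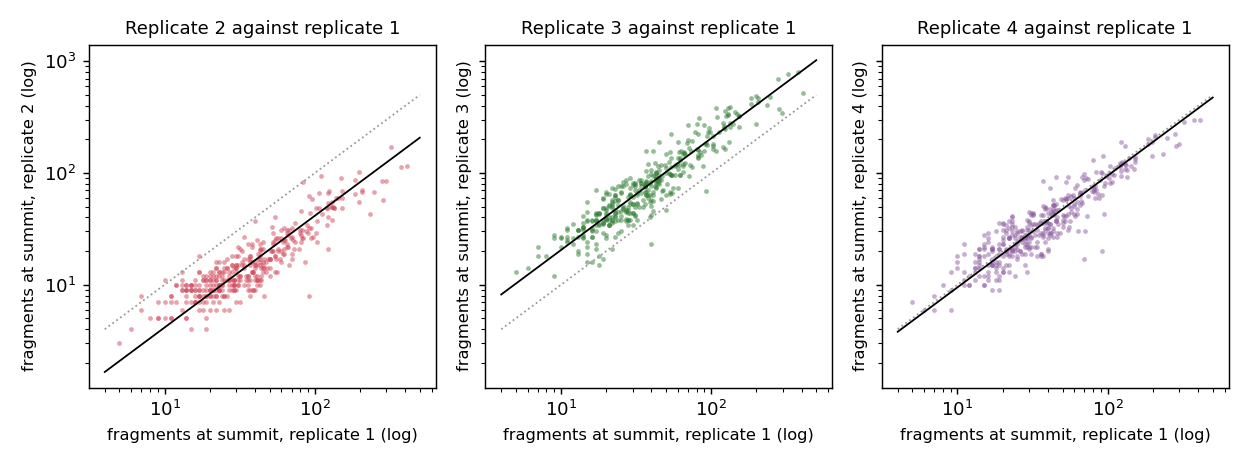
Fragments at the summit of each of the 376 shared regions in replicates 2, 3 and 4 (vertical, log axis) against replicate 1 (horizontal, log axis). The solid lines are the median ratios of 0.414, 2.05 and 0.949 and the dotted lines equality; the points run along the solid lines with a scatter around them.

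The regions were divided by mean percentile of fold into 4 strength classes of 94, from class 1, the weakest, to class 4, the strongest. The median ratio of fragments in replicate 2 to those in replicate 1 was 0.479, 0.404, 0.415 and 0.376 in classes 1 to 4. For the backgrounds it was 0.350, 0.380, 0.387 and 0.371. The median ratio of the folds was 0.944, 0.740, 0.775 and 0.690 with the added 1, and 1.37, 1.12, 1.18 and 1.04 without it. At the median, replicate 2 was thus below replicate 1 in every class by the caller's fold and above it in every class without the added 1. Weak regions are members where replicate 2 also passed the threshold, and the part this plays in the ratios of class 1 was not tested.

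The regions kept much the same order of strength in the 4 libraries. Across the 376 regions the Spearman correlation of fold between replicates lay between 0.690, for replicates 2 and 4, and 0.791, for replicates 1 and 3, and the Pearson correlation of log2 fold between 0.798 and 0.851. For fragments at the summit the Spearman correlation was 0.837 to 0.918. For the backgrounds it was 0.880 to 0.923, and for fragments over background without the added 1 it was 0.719 to 0.798. These are correlations across regions, which are not replicates. Within each library the fold was weakly related to the background, with Spearman correlations of −0.21, −0.05, −0.18 and −0.14 in replicates 1 to 4, while it rose with the width of the peak, at 0.55, 0.62, 0.44 and 0.51.

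At single regions the balance of the libraries could be quite different. Each library's share was taken from the summit fragments of the 345 regions with 1 peak per list. The region whose 4 fragment counts departed most from these shares lay on chromosome 4 from 30185765 to 30186253. It was chosen after its values were seen. It held 92, 8, 69 and 20 fragments in replicates 1 to 4, and its folds were 37.7, 5.53, 13.7 and 7.95. Replicate 1 had the most fragments there, more than replicate 3, and the summits lay within 46 bp. On chromosome 10 from 7684230 to 7685655, replicate 4 was the lowest instead, with 17 fragments against 70, 32 and 199 in replicates 1 to 3. The departure was measured as a chi-square against those shares, at 76.3 for the first of these regions and 54.2 for the second. Its 95% point by counting error alone is 7.81. Of the 345 regions with 1 peak per list, 78 (22.6%) were past it, against 5% by counting error alone. No source used here says how duplicate reads were treated, and the cause of this spread was not tested.

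By percentile within the lists, the regions on which the replicates differed most began at 4223060 and 22463978 on chromosome 1, at 16092246 and 7293072 on chromosome 12 and at 23071401 on chromosome 3. At the first, the percentiles were 91.1, 12.3, 97.3 and 59.7 in replicates 1 to 4, from folds of 15.1, 4.32, 22.1 and 6.08 over 19, 4, 36 and 9 fragments. At 16092246 they were 8.68, 67.4, 92.1 and 36.5. Replicate 2 had the lowest percentile in 4 of these 5 regions and replicate 1 in the other. Percentiles depend on the list, however. The median percentile of all shared regions was 81.0, 62.4, 92.0 and 87.8 in replicates 1 to 4. In replicate 2 all 5 had few fragments at the summit, 3 to 11, while in replicate 3 they had 13 to 44.

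The 4 libraries placed their summits close together, and closest where the enrichment was strong. Summit positions were not used to choose the regions, but overlapping peaks bound how far apart they can be. In the 345 regions with 1 peak per list the 4 summits spanned a median of 75 bp, with an interquartile range of 42 to 133 bp. The span was within 50 bp in 114 regions, within 100 bp in 226 (65.5%) and within 200 bp in 308 (89.3%). The median span was 129, 75, 64 and 54 bp in strength classes 1 to 4. The share within 100 bp was 36.5% in class 1 and 81.9% in class 4. The regions themselves were longer where they were strong, with a median of 701.5 bp in class 1 and 1281.5 bp in class 4.

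**Figure D3:**
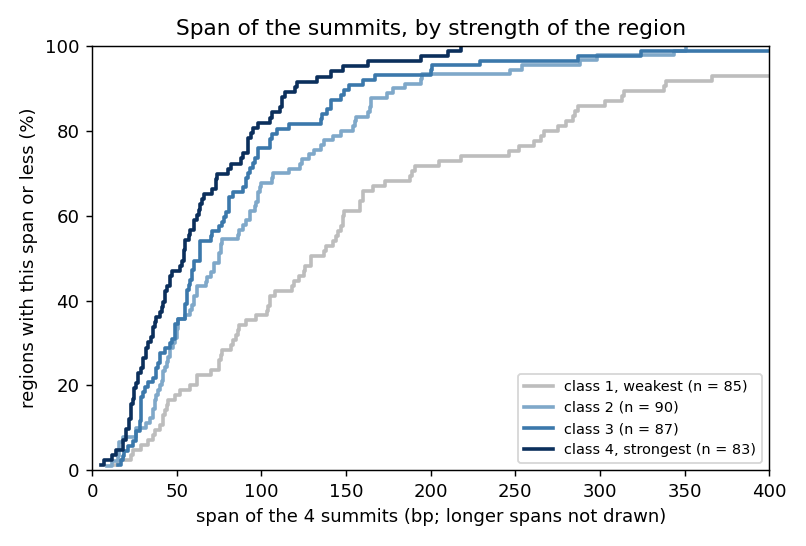
Cumulative share of regions (vertical, percent) with a span of the 4 summits up to the value on the horizontal axis (bp), for the 345 regions with 1 peak per list, by strength class (mean percentile of fold). The curve of class 4, the strongest, rises first (median 54 bp) and that of class 1 last (median 129 bp).

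Between 2 replicates the median distance of summits was 26 bp for replicates 1 and 3 and 40 bp for replicates 2 and 4, with the other 4 pairs in between. The summit farthest from the rest was that of replicate 2 in 115 regions, of replicate 4 in 103, of replicate 1 in 69 and of replicate 3 in 58. Relative to the peak's length, from 0 at the lower coordinate to 1 at the higher, the median summit lay at 0.516, 0.489, 0.503 and 0.495 in replicates 1 to 4, a mean of 0.00068 ± 0.012 above the middle (SD, n = 4). The exact two-sided sign-flip permutation test over the 4 replicates gave p = 1, and 4 replicates allow no p below 1 in 8.

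The closest agreement was on chromosome 7 at 27234207 to 27234904, where the summits lay at 27234497, 27234496, 27234492 and 27234492 in replicates 1 to 4, a span of 5 bp, with folds of 17.2, 10.4, 13.8 and 16.2. The next were on chromosome 1 at 3096100 (7 bp), chromosome 4 at 26098077 (9 bp), chromosome 2 at 16986493 (12 bp) and chromosome 5 at 16550345 (12 bp). The span exceeded 300 bp in 16 regions (4.64%). The widest, 982 bp, was on chromosome 4 from 32886402 to 32888214. There replicates 1, 2 and 3 had their summits within 17 bp, at 32888067, 32888053 and 32888050, and replicate 4 had its summit at 32887085. The next widest, on chromosome 12 from 11088372 to 11090089, spanned 612 bp, and there the summit of replicate 2, at 11089321, lay apart from the other 3, at 11088709 to 11088755. Of the remaining 3 of the widest, the region on chromosome 1 at 11686943 spanned 592 bp, and those on chromosome 2 at 35591123 and 19920375 spanned 550 and 535 bp.

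Shared regions were short. Their length had a median of 903 bp with an interquartile range of 660.5 to 1263 bp, and together they covered 432 kb. The median peak in them was 558.5, 379, 700 and 742.5 bp wide in replicates 1 to 4. Replicates 3 and 4 therefore set most of the outer edges, and replicate 2 gave the narrowest peaks. In every region some sequence was covered by peaks of all 4 lists. This common core had a median of 339 bp, from 41 to 4084 bp, and held the summits of all 4 replicates in 325 regions (86.4%).

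Only 31 regions had more than 4 peaks, and 7 regions were 4 kb or longer. The longest 5 were on chromosome 10 from 20471673 to 20484663 (12991 bp), from 20451801 to 20460767 (8967 bp) and from 20462859 to 20469134 (6276 bp), on chromosome 7 from 14230378 to 14237888 (7511 bp) and on chromosome 3 from 31811526 to 31817519 (5994 bp). In each of these 5, replicate 3 had a single broad peak where replicates 1, 2 and 4 had between 2 and 5 separate peaks. Backgrounds there were above the list medians. In replicate 1 they were 7.89 to 13.6 fragments at the highest summit, against a median of 2.44 over all shared regions.

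The 3 long regions of chromosome 10 were neighbours in a stretch of 32.9 kb. Peaks covered 44.7% of it in replicate 1, 25.3% in replicate 2, 95.1% in replicate 3 and 78.1% in replicate 4, with 10, 9, 5 and 11 peaks. Its highest summit, about 26 kb from the start, lay at 20477813, 20477795, 20477789 and 20477818 in replicates 1 to 4, within 29 bp. The folds there were 45.1, 28.0, 35.8 and 31.9, over 410, 115, 521 and 296 fragments. Another summit recurred in all 4 libraries within 17 bp, at 20465565, 20465548, 20465563 and 20465556, with folds of 22.3, 14.5, 27.8 and 18.6. In the first of the 3 regions the summit of highest fold differed between libraries, at 20459803 in replicate 1 and 20459774 in replicate 4 but at 20454546 in replicate 2 and 20455102 in replicate 3. Replicates 1, 2 and 4 each had a summit near the first of these places, at 8.002, 8.037 and 7.973 kb from the start. Replicates 1, 3 and 4 had one at 3.336, 3.301 and 3.295 kb. Replicates 1, 2 and 4 also had one at 31.105, 31.079 and 31.129 kb, inside a single broad peak of replicate 3. The libraries therefore differed in how they divided the stretch. Each called peak gives only 1 summit, so a broad peak cannot show the others within it.

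**Figure D4:**
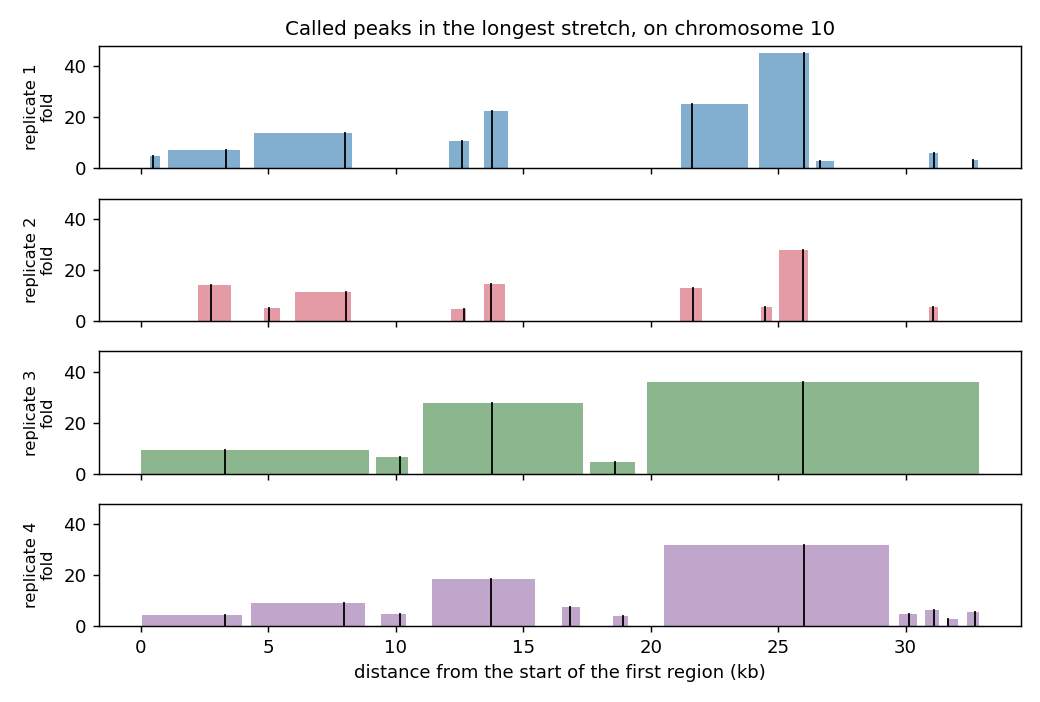
Called peaks in the 32.9 kb stretch of chromosome 10 that holds 3 shared regions, by replicate, against distance from the start of the first region (kb). Each bar spans 1 peak, its height is the fold at the summit, which the black line marks, and not the coverage across the peak; the highest summit, with folds of 45.1, 28.0, 35.8 and 31.9 in replicates 1 to 4, is at the same place in all rows.

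Shared regions lay on all 12 chromosomes, with 69 on chromosome 1, 50 on chromosome 3, 49 on chromosome 2 and 34 on chromosome 12, and the fewest, 13, on chromosome 11. As a share of the merged regions outside the blocks they ranged from 4.13% on chromosome 11 to 16.5% on chromosome 12, around the 9.74% of the genome. The number of peaks found by a single replicate enters these shares, and they were not tested. Neighbouring regions were a median of 479 kb apart, with an interquartile range of 185 to 1091 kb. Of 364 gaps, 20 were under 10 kb and 9 under 2 kb. The closest pair was on chromosome 1, where 225 bp separated a region ending at 8084374 from one starting at 8084600. The first of these had folds of 12.6, 7.96, 16.8 and 21.5 in replicates 1 to 4 and the second 39.3, 31.2, 30.6 and 36.3, so the second was the stronger in every library. The longest stretches without a shared region were 6.47 Mb on chromosome 2, 6.44 Mb on chromosome 7 and 6.14 Mb on chromosome 8.

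The 3 others do not fix whether a replicate finds the regions they share, though the length of its own list limits this. Regions were therefore chosen again from 3 lists, and a peak of the fourth was looked for. Replicate 1 had a peak in 376 of the 403 regions shared by replicates 2, 3 and 4 (93.3%, exact 95% Clopper-Pearson interval 90.4 to 95.5%). Replicate 3 had one in 381 of 388 (98.2%, 96.3 to 99.3%) and replicate 4 in 377 of 385 (97.9%, 95.9 to 99.1%). Replicate 2 had one in 376 of the 745 regions shared by the others (50.5%, 46.8 to 54.1%). The count of shared regions thus rests on replicate 2, and 745 regions were shared by the other 3. The whole list of replicate 2 held 626 peaks, fewer than these 745 regions, so its length limits its share. The shares of replicates 1, 3 and 4 are over fewer regions, all with a peak of replicate 2. The 4 shares are therefore not over like sets of regions. The counts of 381 and 377 exceed 376 because regions that the left-out list joins are counted apart without it. The intervals cover counting error only.

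Recovery followed strength. For each left-out list, the regions of the other 3 were divided into 4 strength classes in the same way. Each of replicates 1, 3 and 4 had a peak in all regions of classes 3 and 4, for example in 101 of 101 in class 4 for replicate 1 (interval 96.4 to 100%). For replicate 2 the shares were 14.4, 34.4, 63.4 and 89.8% in classes 1 to 4, with an interval of 84.5 to 93.7% in class 4. The strongest region that replicate 2 missed was on chromosome 11 from 696977 to 697799, with folds of 16.8, 24.9 and 14.3 and 53, 140 and 41 fragments in replicates 1, 3 and 4. The strongest missed by replicate 1, on chromosome 1 from 2421315 to 2421726, had 8, 28 and 17 fragments in replicates 2, 3 and 4.

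**Figure D5:**
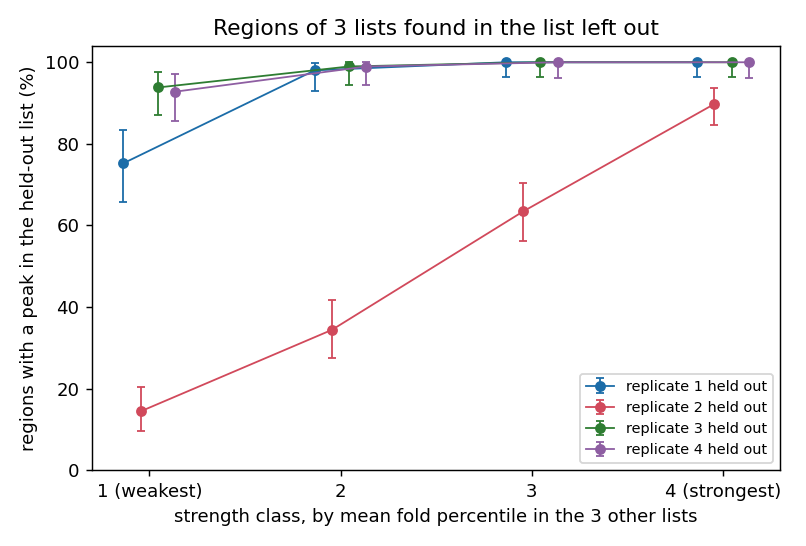
Share of regions shared by 3 lists that held a peak of the list left out (vertical, percent, with exact 95% Clopper-Pearson intervals), by strength class, from the mean fold percentile in the 3 lists that chose the regions (horizontal). Replicates 1, 3 and 4 reach 100% in classes 3 and 4, and replicate 2 climbs from 14.4% to 89.8%.

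The regions most like the shared ones were the 369 found in replicates 1, 3 and 4 and not in replicate 2. They were weaker in all 3 lists, with median folds of 5.56, 6.54 and 6.44 in replicates 1, 3 and 4 against 9.86, 12.3 and 10.7 in the shared regions. The median number of fragments was 18, 34 and 17 against 34, 67 and 31, while the backgrounds were alike, at 2.34, 4.68 and 1.78 against 2.44, 4.77 and 1.83. The 3 summits of replicates 1, 3 and 4 spanned a median of 76 bp in the 357 of them with 1 peak per list, and 52 bp in the 351 such shared regions. Region length was 608 bp at the median against 903 bp. No test of these differences was made, since regions are not replicates.

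The share of these 745 regions with a peak in replicate 2 rose with the fragments in replicate 1. It was 17.0% of 47 regions with under 10 fragments (7.65 to 30.8%), 28.6% of 245 with 10 to 19 and 49.1% of 281 with 20 to 39. It was 89.7% of 107 with 40 to 79 (82.3 to 94.8%) and 98.5% of 65 with 80 or more (91.7 to 99.96%). The median of fragments in replicate 1 was 18 in the regions without a peak of replicate 2 and 34 in the shared regions. The median ratio of 0.414 between replicates 2 and 1 comes from the shared regions alone. These were chosen with a peak in replicate 2, so the ratio cannot be carried to regions without one. How far the lower counts of replicate 2 account for the regions it lacks was not tested.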

How the data were processed

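Each of the 4 ChIP samples has a deposited list of peaks, called per replicate without pooling, and the 4 inputs had no file here. Per the submitters' processing notes, the build was IRGSP-1.0 and the tools were MACS2 1.4.2, Bowtie 0.12.8, deepTools 3.5.4 and bcl2fastq 2.2. The peak names deposited for replicates 1, 2 and 4 name Bowtie2 instead, and those of replicate 3 name no aligner. No source used here states the control, the treatment of duplicate reads or the caller's settings. The deposited fold enrichment is a ratio of the summit to the local background, the deposited −log10 p-values and −log10 q-values are the caller's, and the deposited score, which was not used, is the −log10 q times 10 without its decimals.

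Peaks were merged at 1 bp of overlap. Summit fragments were solved for, as the whole number that, with a background, gives both the deposited fold, with 1 added to each term, and the deposited −log10 p as a Poisson tail. The ratio of fragments to background was also taken without the added 1, chosen after the data were seen. A solution within 0.002 existed for all 7352 peaks. Library depths are not in the lists, and fragment counts at called summits do not measure them. Percentiles of fold are ranks within a list. Named regions are the 10 with the highest and the 5 with the lowest mean percentile, the 5 with the widest range of percentiles, the 5 with the widest and the narrowest span of summits, and the 5 longest. The members and these choices were made with earlier results of these data known. On simulated lists all 200 planted sites and 500 of 500 simulated fragment counts were recovered, which tests the code only. Python 3.11.15, numpy 2.4.6, pandas 2.3.3, scipy 1.17.1 and matplotlib 3.10.9 were used.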

Additional observations from a re-analysis of the deposited data

Results flagged for a closer look

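Of 47 values compared across the 4 replicates, 3 had a replicate far from the others by Dixon's criterion. Chance alone does this for about 1 in 20 independent values. The 47 values share the same 4 libraries, and some are of regions chosen for extreme values. No conclusion is therefore drawn from the 3 of 47. The folds given below are of regions named for a low mean percentile or a wide span of summits. The share of regions of the 3 other lists that were found was 50.5% in replicate 2, against 93.3, 98.2 and 97.9% in replicates 1, 3 and 4. These shares are over different sets of regions, and the short list of replicate 2 limits its own. At the region starting at 1743540 on chromosome 1, the fold of replicate 3 was 3.44, against 4.90, 4.89 and 4.89 in replicates 1, 2 and 4. At the region starting at 11686943 on chromosome 1, the fold of replicate 4 was 11.6, against 5.22, 6.06 and 6.18 in replicates 1 to 3.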

How the results depend on the processing

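The number of shared regions was 376. It was 160 when every peak had to reach a −log10 q of 10, 250 with each list limited to its strongest 626 peaks, and 385 to 745 with 1 replicate left out, 745 without replicate 2; an overlap of 100 bp, chained summits, a −log10 q of 3 and keeping the blocks gave 350 to 450. The median span of summits was 75 bp, 56.5 bp at a −log10 q of 10 and 56.5 to 66 bp with 1 replicate left out, which leaves 3 summits to span. Without replicate 2 the median folds of replicates 1, 3 and 4 were 7.06, 8.47 and 7.93; with each replicate left out in turn they ranged from 7.06 to 9.70, from 8.47 to 11.9 and from 7.93 to 10.5, and that of replicate 2 from 7.24 to 7.49. Without the 1 added to fragments and background the median folds were 14.7, 17.3, 14.9 and 16.9 in replicates 1 to 4, which turns the order of replicate 2 from lowest to highest, and the mean Spearman correlation was 0.763. The mean Spearman correlation over the 6 pairs was 0.748 for fold, 0.794 for −log10 q and 0.871 for fragments. At a −log10 q of 10 the share found was 99.4% for replicate 1, 44.4% for replicate 2 and 100% for replicate 3. The mean relative summit position minus 0.5, at 0.00068, was −0.00029 in regions with 1 peak per list and −0.0034 to 0.0018 with 1 replicate left out. Leaving out replicates and the added 1 for the fold and the correlation, and all alternatives for the summit position, were added after the data were seen. Apart from what the settings themselves remove, the causes were not tested. No paired analysis was possible because the inputs were not analysed here and no groups were compared. Motifs and the position of genes were not run.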
